A study of Rattus norvegicus with 6 samples.

Results

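Regulated secretion was described through 7 genes of the machinery that releases secretory granules, *Snap25*, *Stx1a*, *Vamp2*, *Syt7*, *Sytl4*, *Rab27a* and *Rab3a*, in cell classes of the rat pancreas. They were chosen by name from the textbook pathway, with earlier results of these data known, and all 7 were found among the 32883 genes listed in the files. Unique molecular identifiers (UMIs), each standing for 1 captured transcript, were counted per gene and cell barcode with the 10x Genomics chemistry that reads transcript 3' ends, and levels are given as CPM, the UMIs of a gene per 1000000 UMIs of a cell class in 1 rat.

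In all, 6 male Wistar rats in 3 groups of 2 were sequenced, 1 library per rat. Young rats were 2 months old on a normal diet, old rats stayed on that diet up to 20 months of age, and HFHF-old rats received a high-fat high-fructose diet from 2 to 20 months of age. The pancreas was digested with collagenase and passed over a density gradient, which favours islets, so shares of cell classes do not describe the intact organ.

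This form of secretion moves granules to the plasma membrane and fuses them there when calcium rises. Rab GTPases and their effectors bring the granule to the membrane, SNARE proteins of the granule (*Vamp2*) and of the membrane (*Snap25*, *Stx1a*) zip together to fuse the bilayers, and synaptotagmins such as *Syt7* sense calcium. Islet cells use this route for hormones, whereas mast cells and natural killer (NK) cells, which release granules of their own, use Rab27a together with partly different SNAREs and effectors.

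Cells were assigned by transcripts other than these 7 genes. A barcode in which insulin, glucagon, pancreatic polypeptide with peptide YY, or somatostatin transcripts led and made up at least 5% of UMIs was a beta, alpha, PP or delta cell, and delta cells were too few to use. Acinar cells had at least 20% of UMIs from digestive enzymes, and mast and NK cells were taken by lists of their markers. Of 75203 barcodes kept, 2126 were alpha, 6155 beta, 1404 PP, 2730 acinar, 92 mast and 13882 NK cells. A class entered in a rat with at least 10 cells, which left HFHF-old replicate 2, with 3 alpha, 5 beta and 0 PP cells, out of the islet classes, and left 4 rats for mast cells. HFHF-old is therefore 1 rat in every islet comparison.

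The classes carried the markers of their names. Among genes not used to assign the cells, *Slc2a2*, the beta cell glucose transporter, had a median of 323.8 CPM in beta cells and 1.9 in alpha cells, and *Irx2*, a transcription factor of alpha cells, had medians of 49.5 in alpha, 0.166 in beta and 5.16 in PP cells. *Chga*, a granule protein of endocrine cells, had medians of 1246 in alpha, 368.8 in beta and 2177 in PP cells and of 11.9 in acinar, 6.99 in NK and 0 in mast cells. The beta class was the least uniform, with digestive enzymes at 0.12% to 8.21% of its UMIs. In young replicate 2 it held 3329 barcodes, of which 94.5% were mixed, that is carried a second hormone at 10% or more of the first, *Ptprc* of immune cells or *Col3a1* of fibroblasts, and in HFHF-old replicate 1 its barcodes had a median of 768 UMIs and 7.15% insulin. Of the 9685 alpha, beta and PP barcodes, 4960 had less than 20% of UMIs from their leading hormone, and 668 lay between 5% and 6%. A further 700 between 4% and 5% were not assigned to an islet class, and some of them entered the acinar or NK class. Libraries held between 77387928 and 166875258 UMIs, and 636 barcodes occurred in more than 1 library.

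**Figure D1:**
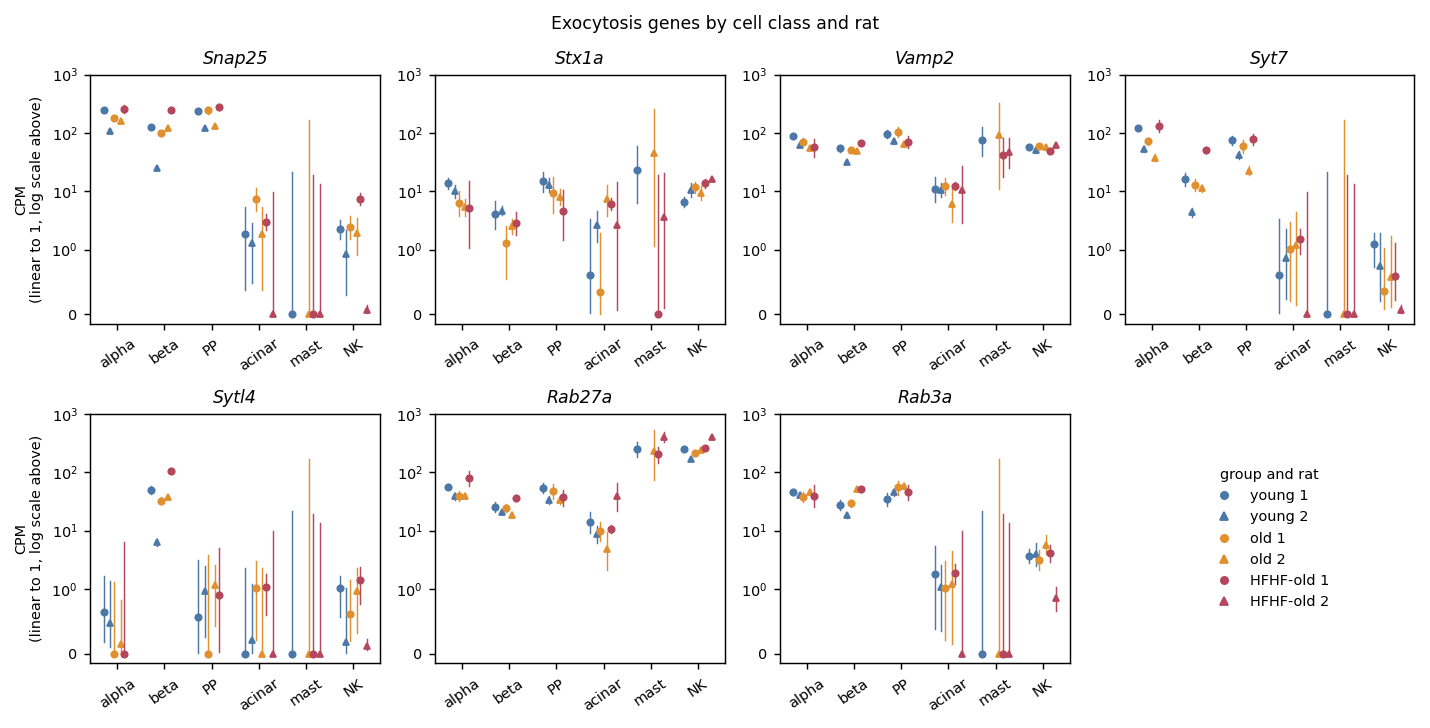
CPM (y axis, linear up to 1 and logarithmic above) of the 7 genes by cell class (x axis), with 1 point per rat coloured by group and shaped by replicate, and bars for 95% Poisson intervals, which cover counting error only. *Snap25*, *Syt7* and *Rab3a* sit high in alpha, beta and PP cells, *Sytl4* is high in beta cells, and *Rab27a* is highest in mast and NK cells.

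*Snap25*, which encodes a SNARE of the plasma membrane, marked all 3 islet classes. In the order young 1, young 2, old 1, old 2 and HFHF-old 1, it stood at 250.4, 109.3, 182.0, 162.4 and 258.7 CPM in alpha cells. In beta cells the values were 125.8, 25.1, 101.1, 119.3 and 245.2. In PP cells they were 235.6, 120.5, 242.6, 131.5 and 280.1. Young replicate 2 was the lowest rat in each of these classes. Acinar cells ranged from 0 to 7.45 and NK cells from 0.0646 to 7.37, without overlap with any islet sum, and in mast cells *Snap25* had 0 UMIs of 665764.

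*Stx1a*, the plasma membrane syntaxin that pairs with *Snap25*, was low everywhere and did not set islet cells apart. Alpha cells had 13.8, 9.91, 6.30, 5.31 and 5.14 CPM and beta cells 4.08, 4.64, 1.27, 2.54 and 2.83 in the same rat order, and PP cells lay between 4.49 and 14.8. NK cells held 6.66 to 16.1, overlapping alpha and PP cells and lying above the beta cells of the 5 rats with a beta cell sum. The mast cell values, 0 to 45.8, rest on 6 UMIs in all.

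*Vamp2*, the SNARE of the granule membrane, was present in all 6 classes. It ranged from 55.6 to 89.8 CPM in alpha, 31.8 to 66.8 in beta and 63.8 to 104.2 in PP cells. NK cells, at 49.1 to 63.2, and mast cells, at 41.3 to 91.7, overlapped these ranges. Only acinar cells, at 6.07 to 12.4, lay below all islet sums, which sets *Vamp2* apart from *Snap25*, whose level did not exceed 7.37 in either immune class.

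*Syt7*, a calcium sensor of slow kinetics and high affinity, was the member with the clearest split within the islet besides *Sytl4*. Alpha cells had 122.7, 53.1, 72.4, 37.8 and 130.2 CPM, and PP cells had 75.3, 41.6, 58.8, 22.6 and 78.1. Beta cells had 16.1, 4.34, 12.9, 11.3 and 50.9, below the alpha and the PP value of the same rat in all 5 rats. Outside the islet *Syt7* did not exceed 1.5 in acinar or 1.22 in NK cells, and mast cells had 0 UMIs.

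*Sytl4*, which encodes granuphilin, an effector that links Rab27a on insulin granules to the plasma membrane, was a beta cell transcript. Beta cells had 49.5, 6.27, 32.4, 37.5 and 105.4 CPM. Alpha cells had 4, 3, 0, 1 and 0 UMIs in the 5 rats and PP cells 1, 4, 0, 6 and 1, so that the highest alpha sum was 0.642 and the highest PP sum 1.18 CPM. NK cells reached 1.40 and acinar cells 1.07, about the level of alpha and PP cells. Young replicate 2 had the low beta value. Its 134 unmixed beta barcodes with at least 20% insulin and 2000 UMIs gave 32.3 CPM, and the other 4 rats ranged from 33.0 to 127.4 by that rule.

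*Rab27a*, the GTPase of secretory granules and lysosome-related organelles, showed the opposite order. It ranged from 171.4 to 400.7 CPM in NK and 201.3 to 398.0 in mast cells. In alpha cells it ranged from 38.7 to 78.8, in PP cells from 33.1 to 54.2 and in beta cells from 18.7 to 36.8, so that the islet and immune ranges did not overlap. Acinar cells had 4.86 to 39.3, where the highest value, from HFHF-old replicate 2, rests on 15 UMIs in 66 cells and overlapped the islet classes. That sum also held the leukocyte marker *Ptprc* at 495 CPM, against 63.9 to 90.4 in the acinar cells of the other rats. In unmixed acinar barcodes with at least 40% enzymes and 2000 UMIs *Rab27a* was at 0.854 to 5.38 CPM, from 1 to 12 UMIs a rat, below the 15.5 to 61.9 of islet cells chosen likewise with at least 20% hormone.

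*Rab3a*, a GTPase of synaptic vesicles and neuroendocrine granules, followed *Snap25*. It ranged from 38.1 to 46.3 CPM in alpha, 18.1 to 52.3 in beta and 34.8 to 58.9 in PP cells, and these ranges overlapped. NK cells had 0.852 to 5.76, acinar cells 0 to 1.86, and mast cells 0 UMIs. Free RNA from broken islet cells can reach other droplets, and insulin in NK cells stood at 0.161% to 1.13% of the beta cell level in the 5 rats with beta cells. *Rab3a* in NK cells stood at 8.06% to 21.7% and *Snap25* at 1.61% to 3.73% of their beta cell levels. In HFHF-old replicate 2, which had almost no islet cells, *Snap25* in NK cells was at 0.0646 CPM, from 5 UMIs, and *Rab3a* was at 0.852 CPM. What part free RNA had in these low levels was not tested.

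Classes were compared over rats with edgeR's quasi-likelihood test on summed UMIs, with the rat as a block, and genes with more than a 1.5-fold difference were called where the p adjusted after Benjamini and Hochberg, across the 13452 genes of the fit, was under 0.05. Values are log2 fold changes after TMM scaling, which discounts the hormones and enzymes that dominate some classes. Islet cells, the mean of alpha, beta and PP cells, were higher than acinar cells in 4 of the 7 genes and lower in 0, beside 25.9% and 24.6% of all genes (50.4% called in all). *Snap25* was higher by 4.34 ± 0.37 (SE, adjusted p = 7.1e-10), *Syt7* by 3.88 ± 0.38, *Rab3a* by 3.34 ± 0.26 and *Vamp2* by 1.16 ± 0.16. *Rab27a* differed by 0.45 ± 0.15 (adjusted p = 0.0104), short of the fold required, but was called with mixed cells left out (1.42) and with unmixed cells (1.54), and *Stx1a* and *Sytl4* were not called. By plain library totals, the scale of the levels above, *Rab27a* (1.83 ± 0.18) and *Sytl4* (2.32 ± 0.58) were called too, *Stx1a* turned from -0.56 to 0.86, the median of all genes moved from 0.08 to 1.5, and 95.4% in place of 51.3% of called genes were higher in islet cells.

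Against NK cells, where 60% of all genes were called, 29.8% higher and 30.1% lower, 5 of the 7 genes were higher in islet cells and 1 was lower. *Snap25* and *Syt7* were each higher by 6.62 (SE 0.37 and 0.36), *Rab3a* by 4.11 ± 0.21 and *Sytl4*, through beta cells, by 2.48 ± 0.48. *Rab27a* was lower, at -1.84 ± 0.11 (adjusted p = 3.19e-14). *Vamp2* was higher by 0.98 ± 0.14 after TMM scaling but by 0.21 ± 0.14, and not called, by plain totals. *Stx1a* was not called (-0.05 ± 0.33), but was lower by plain totals, at -0.83 ± 0.33 (adjusted p = 0.0237). The median of all genes was -0.09 after TMM scaling, -0.84 by plain totals and 0.25 with DESeq2's size factors, and 49.7%, 24.6% and 64.6% of called genes were higher in islet cells.

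Against mast cells, 33.5% of all genes (22.5% higher and 11% lower) and 5 of the 7 were called, with *Snap25*, *Syt7*, *Rab3a* and *Vamp2* higher in islet cells and *Rab27a* lower at -1.38 ± 0.18. *Vamp2* was again not called by plain totals (0.31 ± 0.26). Of all called genes 67.1% were higher in islet cells after TMM scaling, 54.2% with hormone and enzyme genes left out and 19.6% by plain totals. For genes at 0 UMIs in mast cells the fitted fold has no meaning, and a floor of 3 UMIs over all mast cells, 4.51 CPM, gives a bound. Against it the alpha cell median was at least 40.4-fold higher for *Snap25*, 16.1-fold for *Syt7* and 9.07-fold for *Rab3a*, and the beta cell median of *Sytl4* was at least 8.32-fold higher. The bounds for the beta cell median were lower for the other 3 genes, at 26.5 for *Snap25*, 2.86 for *Syt7* and 6.49 for *Rab3a*. The lowest beta cell sum of *Syt7* lay below the floor, at 0.962 of it. With sums of at least 25 cells, which keeps the mast cells of 1 rat, 3 of the 7 genes were called. That rat, HFHF-old replicate 2, had no islet sum. Islet and mast cells were thus compared only through its acinar and NK cells. The share of all genes called under this setting is not given here.

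Within the islet, 2 of the 7 genes separated beta from alpha cells, where 27.8% of all genes were called. *Sytl4* was higher in beta cells by 7.48 ± 0.48 (adjusted p = 9.9e-11), an estimate that rests on 8 UMIs in all alpha cells, and *Syt7* was lower at -1.38 ± 0.27 (adjusted p = 4.32e-04). Both kept direction and call by plain totals, at 6.45 and -2.29. *Rab3a* (0.58 ± 0.20, adjusted p = 0.0276) and *Vamp2* (0.50 ± 0.17, adjusted p = 0.0297) passed the test but not the fold, and both turned negative by plain totals, to -0.34 and -0.42. Both were called higher in beta cells with single hormone transcripts, with mixed cells left out, with unmixed cells and without young replicate 2, at 0.75 to 0.99 for *Rab3a* and 0.60 to 0.70 for *Vamp2*. In all, *Rab3a* was called higher in 9 of 20 alternatives and *Vamp2* in 4. *Snap25* (0.10 ± 0.30), *Rab27a* (-0.06 ± 0.16) and *Stx1a* (-0.59 ± 0.44) were not called, but all 3 were called lower in beta cells by plain totals, at -0.85, -0.97 and -1.47. By plain totals the median of all genes stood at -0.82 in place of 0.07, and the higher share of called genes was 5.18% in place of 60.5%.

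PP cells differed from alpha cells in 0 of the 7 genes by edgeR, where 6% of all genes were called, with 1 member, *Syt7*, at an unadjusted p under 0.05 (-0.59 ± 0.26) and 0 called by DESeq2. Without young replicate 2, *Syt7* was called (-0.67). Against beta cells, where 22.3% of all genes were called, *Sytl4* was lower in PP cells at -6.08 ± 0.45 (adjusted p = 1.63e-09), and *Syt7* was higher by 0.79 ± 0.27 (adjusted p = 0.0351). The *Syt7* call was lost in 12 of the alternatives, among them DESeq2 (adjusted p = 0.0931) and leaving out young replicate 1, young replicate 2 or old replicate 1. *Snap25*, *Vamp2*, *Rab27a* and *Rab3a* lay below 0 after TMM scaling and above 0 by plain totals, where the median of all genes moved from -0.09 to 0.82 and the higher share of called genes from 40.8% to 95.7%. *Stx1a* lay above 0 on both scales, at 0.83 ± 0.44 and 1.72, and was called by plain totals only. *Rab3a* was called lower in PP cells in 4 of 20 alternatives.

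**Figure D2:**
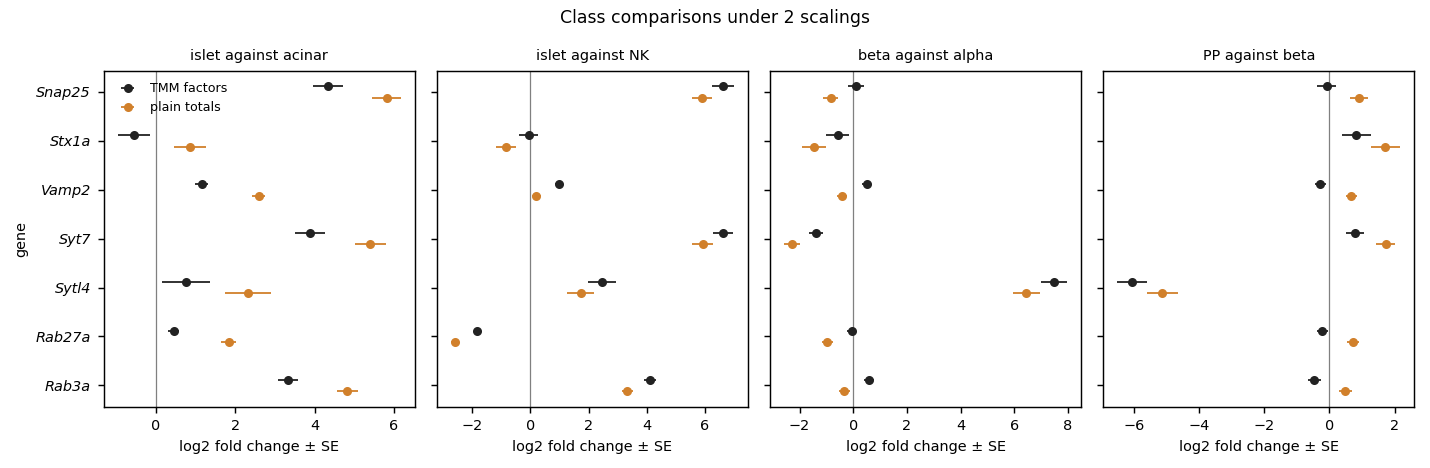
Log2 fold changes (x axis) of the 7 genes (y axis) in 4 class comparisons, with bars of 1 SE, after TMM scaling (black) and by plain library totals (orange). *Snap25*, *Syt7* and *Rab3a* lie right of 0 against acinar and NK cells on both scales. Within the islet *Syt7*, *Sytl4* and *Stx1a* keep their side of 0 on both scales, *Stx1a* being called by plain totals only.

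Promoter sequences of 5 of the 7 genes were matched by symbol in RefSeq (build GRCr8), as the 250 bases before the annotated start. Those of 3 genes are shown because they have 3 different patterns, the islet classes for *Rab3a* (chr16:18722274-18722523, minus strand), beta cells for *Sytl4* (chrX:101479152-101479401, minus strand) and immune cells above islet cells for *Rab27a* (chr8:82663123-82663372, plus strand). They are printed 5' to 3' on the gene's strand, and capitals mark matches to 5 short motifs on either strand, TGACG (part of the cAMP response element), GGGCGG (the GC box), TATAAA (the TATA box), CAGATG (an E-box) and TGCTGA (part of the Maf element).
Rab3a: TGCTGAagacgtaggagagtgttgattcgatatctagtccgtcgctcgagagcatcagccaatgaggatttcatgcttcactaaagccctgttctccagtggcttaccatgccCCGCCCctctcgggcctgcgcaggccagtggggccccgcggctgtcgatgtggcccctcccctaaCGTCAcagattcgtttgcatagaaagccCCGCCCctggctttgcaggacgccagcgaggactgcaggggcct
Sytl4: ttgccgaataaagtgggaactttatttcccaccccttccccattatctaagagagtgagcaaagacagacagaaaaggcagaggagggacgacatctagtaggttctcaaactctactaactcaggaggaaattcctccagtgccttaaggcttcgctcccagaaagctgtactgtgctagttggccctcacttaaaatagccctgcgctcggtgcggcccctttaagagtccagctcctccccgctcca
Rab27a: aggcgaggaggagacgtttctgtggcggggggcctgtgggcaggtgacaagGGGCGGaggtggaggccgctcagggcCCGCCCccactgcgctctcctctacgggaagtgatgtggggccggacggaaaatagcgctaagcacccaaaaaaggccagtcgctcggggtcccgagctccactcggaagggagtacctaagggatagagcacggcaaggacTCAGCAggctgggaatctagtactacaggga

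The *Rab3a* window held 2 GC boxes, 1 TGACG match ending 68 bases before the start and 1 TGCTGA match, the *Rab27a* window 2 GC boxes and 1 TGCTGA match, and the *Sytl4* window none of the 5. The *Sytl4* window was also lower in G and C, at 50.8% beside 60.4% for *Rab3a*, 63.6% for *Rab27a*, 68% for *Vamp2* and 68.4% for *Stx1a*. Over 33469 promoters of this length, 18.2% held TGACG, 30.5% GGGCGG, 12.9% TATAAA, 14% CAGATG and 15.1% TGCTGA. These matches are letters in a window and were not tied to binding in these cells.

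Some relatives of the 7 genes also differed between classes in median CPM. *Stx3*, a syntaxin used in mast cell granules, had a median of 147.4 CPM in mast cells and at most 10.1 in every other class, and *Stx11*, a syntaxin needed for NK cell killing, had 59.0 in NK cells. *Rab27b*, the paralog of *Rab27a*, followed it with 104.4 in mast and 39.5 in NK cells. *Sytl2*, a relative of *Sytl4*, had 69.6 in mast and 30.1 in NK cells and at most 3.10 in islet classes. *Rab3b* was an islet gene like *Rab3a*, at 146.3 in alpha, 58.3 in beta and 74.2 in PP cells against 0.489 in NK cells, whereas *Rab3d* was present in all classes, from 11.6 to 44.9. *Vamp3* and *Vamp8* were found in all 6 classes, and *Syt1* and *Syt9* at low levels in the islet. *Stx4* lay between 4.52 and 26.8.

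**Figure D3:**
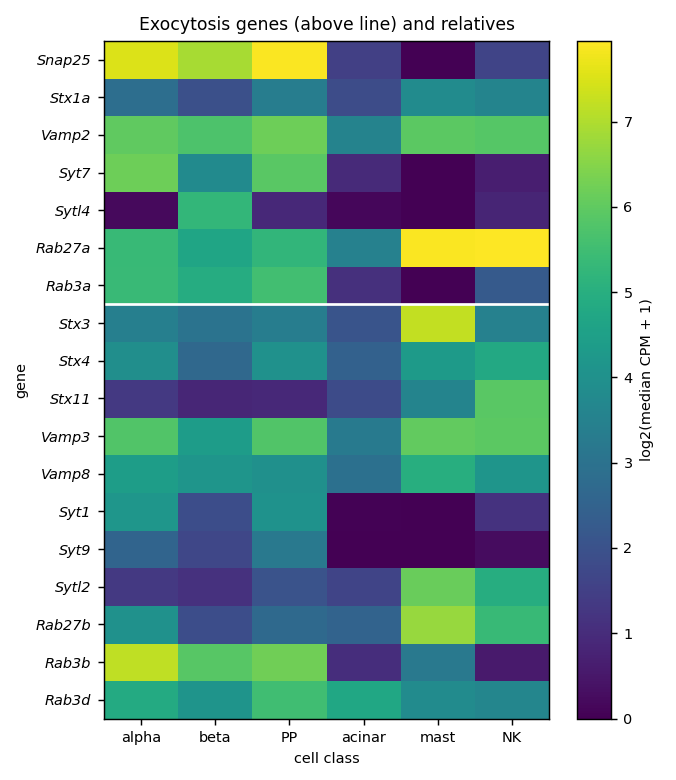
Median level over rats, as log2(CPM + 1) by colour, of the 7 genes (above the white line) and their relatives (y axis) in 6 cell classes (x axis). Immune classes are brightest for *Rab27a*, *Rab27b*, *Stx11* and *Sytl2*, and islet classes for *Snap25*, *Syt7*, *Rab3a* and *Rab3b*. For *Stx3* only mast cells stand out.

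Of 63 other genes of the pathway, 53 were tested between classes. Against acinar cells 31 were higher and 11 lower in islet cells, beside 25.9% and 24.6% of all genes, with the median at 1.05 beside 0.08 for all genes. Against NK cells 31 were higher and 12 lower, beside 29.8% and 30.1%, with the median at 1.40 beside -0.09. By plain totals these counts became 42 higher and 2 lower against acinar cells and 26 and 19 against NK cells. On that scale 10337 of all 13452 genes were called against acinar cells, 9865 of them higher. Against NK cells 10132 were called, 2493 of them higher. The largest changes against acinar cells were in *Bsn* (5.51), *Sytl5* (5.38), *Rims2* (5.03), *Cadps* (4.90) and *Cplx2* (4.82), and against NK cells in *Rab3b* (8.01), *Rab3c* (7.88), *Sytl5* (7.35), *Rimbp2* (7.34) and *Cadps* (7.02). Acinar medians were 0.0357 CPM for *Bsn* and 0.107 for *Sytl5*, and NK medians 0.489 for *Rab3b* and 0.309 for *Rab3c*. The size and order of these folds therefore rest on levels near 0. *Rims2*, *Rimbp2* and *Cadps* act in docking and priming, *Bsn* is a scaffold of release sites and *Cplx2* clamps SNARE complexes. Against mast cells 29 were higher and 7 lower, beside 22.5% and 11% of all genes, and 20 and 12 by plain totals. By plain totals 5201 of all genes were called there, 1020 of them higher.

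Beta cells differed from alpha cells in 21 of the 53, 7 higher and 14 lower, beside 16.8% and 11% of all genes. *Syt2*, a fast calcium sensor, was lower at -4.76 ± 0.51, with medians of 0.159 in beta and 8.81 in alpha cells, and *Rab27b* (-1.78 ± 0.33) and *Sytl5* (-1.53 ± 0.31) were lower too. *Sytl1*, a Rab27 effector like *Sytl4*, was higher by 3.21 ± 0.36 and *Stxbp6*, a syntaxin-binding protein, by 1.64 ± 0.30. All 5 kept their direction by plain totals, though the split over the 53 genes became 2 higher and 33 lower. On that scale 8089 of all 13452 genes were called, 419 of them higher. Against PP cells the same scaling turned 11 genes higher and 7 lower in PP cells, beside 9.11% and 13.2% of all genes, into 32 and 2. By plain totals 8128 of all genes were called there, 7780 of them higher in PP cells. After TMM scaling *Syt2* (4.13), *Rimbp2* (2.55), *Sytl1* (-1.91), *Stxbp6* (-1.80) and *Stxbp5l* (1.78) led. PP and alpha cells differed in 4 of the 53, a share near the 6% of all genes called there, with *Rimbp2* (1.71) and *Vamp1* (1.22) higher in PP cells and *Rab3b* (-1.21) and *Rab27b* (-1.18) lower.

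The genes with the most similar pattern over 31 class-by-rat sums, by Pearson's r of log2(CPM + 1) among 8090 genes, were *Map1b* (0.988), *Tmem130* (0.985) and *Scg2* (0.982) for *Snap25*. For *Syt7* they were *Rab3c* (0.993), *Sytl5* (0.991) and *Srrm3* (0.990), for *Rab3a* *Map1b* (0.975), *Tmem107* (0.974) and *Cacnb2* (0.968). *Vamp2* was most like *Atxn7l3b* (0.958), *Scd2* (0.952) and *Akap11* (0.946), and *Rab27a* most like *Abi1* (0.974), *Ywhaz* (0.973) and *Stim1* (0.968). The sums share rats and libraries, and *Stx1a* and *Sytl4* were too low to rank.

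Ageing and diet were compared within alpha, beta and PP cells, old against young rats and HFHF-old against old rats. None of the members tested was called in any of the 6 comparisons, 0 of 6 in alpha, 0 of 7 in beta and 0 of 6 in PP cells, since *Sytl4* was too low to test in alpha and PP cells. Few genes were called at all, 0.015% with age and 0.0376% with diet in alpha cells, 0% and 0% in beta cells (333 and 132 genes at an unadjusted p under 0.05), and 0.0182% and 0.0274% in PP cells. No member had an unadjusted p under 0.05 with edgeR. DESeq2 called 0 as well, but gave no adjusted p for 5 of the 6 members in alpha cells of HFHF-old against old rats. In simulated data, 72% of 4-fold changes and 5% of 2-fold changes were recovered for old against young in beta cells, and 45% and 2% for HFHF-old against old. In alpha and PP cells 74% and 66% of 4-fold changes were recovered with age but 5% and 19% with diet. Most 2-fold changes, and with diet most 4-fold changes, would thus have been missed. The simulation gave all genes the same fixed spread between rats and changed only genes above a minimum mean count. In beta cells the SE with age was 0.88 for *Snap25*, 0.72 for *Syt7* and 0.96 for *Sytl4*. The recovered shares may therefore be too high for these genes.

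Of the members tested, 1 had a lower CPM in both old than in both young rats in each islet class, *Stx1a*, beside 37.4% of all genes tested in alpha, 21.8% in beta and 17.1% in PP cells. In CPM the median of all genes itself moved by -0.43, -0.32 and -0.18 on the log2 scale in these classes. *Stx1a* stood at 5.81 ± 0.70 against 11.9 ± 2.8 CPM (SD, n = 2 each) in alpha cells, 1.91 ± 0.90 against 4.36 ± 0.39 in beta and 8.68 ± 0.86 against 13.9 ± 1.3 in PP cells. With hormone and enzyme UMIs left out of the total, *Stx1a* overlapped between old and young rats in beta cells. The fitted log2 changes were -0.64 ± 0.36, -0.87 ± 0.62 and -0.49 ± 0.43, with adjusted p of 1.00 by edgeR. These classes come from the same 4 rats and are not independent. With 2 rats against 2, the smallest p of an exact permutation test, two-sided, is 0.333.

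*Rab3a* was the 1 member tested with a higher CPM in both old than in both young rats, beside 5.97% of all genes in beta and 5.99% in PP cells. It stood at 29.2 and 52.3 against 27.5 and 18.1 CPM in beta and at 54.7 and 58.9 against 34.8 and 45.2 CPM in PP cells, with fitted log2 changes of 1.09 ± 0.56 and 0.67 ± 0.40, while alpha cells overlapped (42.2 ± 5.8 against 43.0 ± 3.0). With hormone and enzyme UMIs left out of the total, *Rab3a* overlapped between old and young rats in beta cells. *Snap25*, *Syt7* and *Sytl4* in beta cells overlapped between old and young rats in CPM. The direction of *Snap25*, *Syt7*, *Sytl4* and *Rab27a* there turned when young replicate 2 was left out, with *Sytl4* going from 0.50 ± 0.96 to -0.37.

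The single HFHF-old rat with islet cells had 30 alpha, 785 beta and 63 PP cells, of which 73.3%, 45.2% and 55.6% were mixed. Leaving out the 1% of barcodes richest in genes cut its beta sum from 17613997 to 7422276 UMIs. Its PP sum fell from 2436763 to 1113756 and its alpha sum from 742945 to 583750. The beta sums of old replicates 1 and 2 fell from 10773199 to 6291598 and from 19205790 to 18115535. The alpha cells of the HFHF-old rat held the PP hormones at 37030 CPM, against 1897 and 18530 in the old rats, and the part of such transcripts in the values below was not tested. Its CPM lay above both old rats for 3 of 6 members tested in alpha cells (*Snap25*, *Syt7*, *Rab27a*), 6 of 7 in beta cells (all but *Rab3a*) and 2 of 6 in PP cells (*Snap25*, *Syt7*). Of all genes tested 65.5%, 75.3% and 57.4% did so, and these counts do not set the members apart. It lay below both old rats for 1 of 6 members in alpha (*Stx1a*), 0 of 7 in beta and 2 of 6 in PP cells (*Stx1a*, *Rab3a*), beside 20%, 7.68% and 18% of all genes. The median of all genes in CPM rose by 0.60, 0.79 and 0.46 on the log2 scale. *Sytl4* in beta cells was at 105.4 against 32.4 and 37.5 CPM, and the fitted value of *Snap25* in alpha cells was -0.08 ± 0.49. The fitted changes in beta cells were 1.31 ± 0.83 for *Syt7*, 0.82 ± 1.13 for *Sytl4* and 0.38 ± 1.05 for *Snap25*, which assume that this rat varied like the other groups, and with a replicate block *Sytl4* and *Snap25* turned to -0.18 and -0.37. Its 73 unmixed beta barcodes with at least 20% insulin and 2000 UMIs held *Sytl4* at 127.4 CPM. *Stx1a*, *Vamp2* and *Rab3a* had negative fitted values in all 3 classes (-0.24 to -1.41), the largest being *Stx1a* in PP cells at -1.41 ± 0.69, which rests on 5 UMIs in the HFHF-old rat. By plain totals all 3 turned in beta cells, *Stx1a* to 0.53, *Vamp2* to 0.41 and *Rab3a* to 0.31, while the median of all genes moved from 0.03 to 0.79. *Stx1a* there also turned with the replicate block (0.046) and without old replicate 2 (0.40), as did *Rab3a* without that rat (0.041). The difference between classes in the response to age or diet was tested as an interaction, beta or PP against alpha cells, and 0 of 7 genes were called in the 4 tests, beside 0% of all genes in each by edgeR, and DESeq2 also called 0 of the 7. *Rab27a* for HFHF-old against old, PP minus alpha, had the 1 unadjusted p under 0.05 (0.0494).

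**Figure D4:**
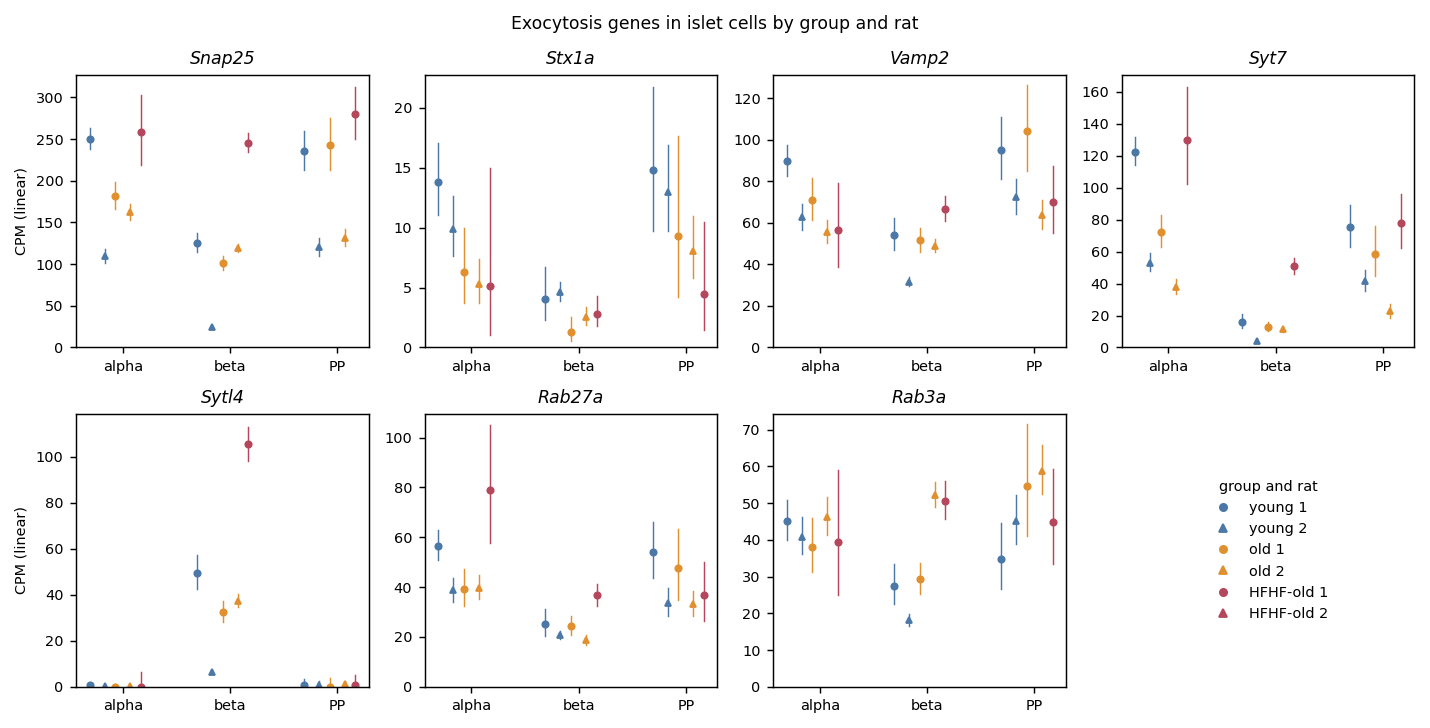
CPM (y axis, linear, from 0) of the 7 genes in alpha, beta and PP cells (x axis), 1 point per rat coloured by group and shaped by replicate, with 95% Poisson intervals for counting error only; HFHF-old replicate 2 has no point. In beta cells the HFHF-old rat is the highest point for *Snap25*, *Vamp2*, *Syt7*, *Sytl4* and *Rab27a*, while the log2 median of all genes rose by 0.79 against old rats on this scale. Both old rats are below both young rats for *Stx1a* in each class, as are 37.4%, 21.8% and 17.1% of all genes tested in alpha, beta and PP cells.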

How the data were processed

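Single-cell libraries of the pancreas of 6 rats were used, and the deposited values are raw UMI counts per gene and barcode, made by the authors with Cell Ranger (version 5.0.0 in the file headers; genome build Rnor_6.0 in the submitters' processing notes). The 7 genes, the marker lists and the related genes were chosen with earlier results of these data known. Filters removed 2821 of 78024 barcodes, namely those below 200 genes, those above 25% mitochondrial UMIs and the 1% richest in genes (cut at 6332). HFHF-old replicate 1 kept 11991 of its 13250 barcodes and HFHF-old replicate 2 kept 11716 of 11987. No doublet caller was run; barcodes with a second hormone at 10% of the first, with any *Ptprc* UMI (islet and acinar cells) or with *Col3a1*, were left out as an alternative. Counts were summed per class and rat where at least 10 cells were present. *Snap23* and *Pecam1* were not analysed here. Some of the fixed marker and related genes are not reported here.

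The sums were fitted in edgeR 4.0.16 (R 4.3.3) after TMM scaling and its default low-count filter, by quasi-likelihood, with DESeq2 1.42.0 as an alternative. SE was taken as the size of the log2 change over the root of its F statistic. Class comparisons held the rat as a block. Named genes were all 7 members, fixed relatives, up to 5 called pathway genes with the largest change per comparison, and the 3 most similar genes per member. Tests were run on simulated data first. Rats are separate animals, and 21 alternatives were run, 3 of them chosen after seeing the data. Poisson intervals are 95% and cover counting error only. Depth per library ranged from 77387928 to 166875258 UMIs, and class sums held from 21815 UMIs (mast cells of old replicate 2) upward.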

Additional observations from a re-analysis of the deposited data

How the results depend on the processing

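Of 21 alternatives, 3 were chosen after seeing the data: plain library totals, unmixed cells with 20% hormone and 2000 UMIs, and a newer quasi-likelihood method. Between rat groups and in the interaction tests, the count of members called was 0 under each alternative that could be run, 16 to 19 between rat groups and 15 or 16 for the interactions. With mixed cells left out and with unmixed cells, HFHF-old replicate 1 kept 8 and 6 alpha cells, under the minimum of 10, so neither could be run for HFHF-old alpha cells or the interactions. Between classes, the counts against acinar and NK cells stayed within 1.5 times of the main count. The count for islet against mast cells was 3 with at least 25 cells per sum. For beta against alpha cells it was 5 by plain totals. It was 4 with single hormone transcripts, with mixed cells left out and with unmixed cells. For PP against alpha cells it was 1 with mixed cells left out and with unmixed cells. For PP against beta cells it was 6 by plain totals. There it was 1 with DESeq2, the newer method, at least 2000 UMIs or mixed cells left out. It was also 1 with no filter on the top 1% of gene number or without the rat as a block. Leaving out a rat gave 2 to 4, 0 to 1 and 1 to 2 for these 3 comparisons. By plain totals 8089 of all 13452 genes were called for beta against alpha cells, in place of 3739. For PP against beta cells 8128 were called, in place of 3006. The share of all genes called under the other alternatives is not given here. Apart from the shift in scale under plain totals, the cause of the changed counts was not tested.

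The log2 values below changed sign. By plain totals, *Snap25* in beta against alpha cells and *Snap25*, *Vamp2* and *Rab27a* in PP against beta cells were called with the new sign, and none of the others was called. By plain totals, old against young gave *Snap25* -0.064, *Vamp2* -0.27, *Rab27a* -0.27 and *Rab3a* -0.023 in alpha, *Rab27a* -0.095 in beta, and *Vamp2* -0.00838 and *Rab27a* -0.14 in PP cells. HFHF-old against old gave *Snap25* 0.59 in alpha and *Stx1a* 0.53, *Vamp2* 0.41 and *Rab3a* 0.31 in beta cells. *Stx1a* became 0.86 against acinar and -0.38 against mast cells. Beta against alpha cells gave *Snap25* -0.85, *Vamp2* -0.42 and *Rab3a* -0.34, and PP against beta cells *Snap25* 0.90, *Vamp2* 0.67, *Rab27a* 0.72 and *Rab3a* 0.49.

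With unmixed cells, old against young gave *Vamp2* -0.00759 in alpha, *Syt7* -0.12, *Sytl4* -0.26 and *Rab27a* -0.16 in beta and *Rab27a* -0.34 in PP cells, HFHF-old against old *Rab27a* -0.014 in beta cells, and *Rab27a* 0.12 (beta against alpha) and *Snap25* -0.017 (PP against alpha). With mixed cells left out, old against young gave *Syt7* -0.022, *Sytl4* -0.15 and *Rab27a* -0.041 in beta and *Rab27a* -0.25 in PP cells, HFHF-old against old *Rab27a* -0.15 in beta cells, and beta against alpha *Rab27a* 0.052. Stricter class rules gave *Snap25* 0.091 (HFHF-old against old, alpha), *Rab27a* -0.062 (old against young, PP) and *Snap25* -0.032 (PP against alpha), and no filter on low counts *Snap25* -0.00362 there. For *Rab27a* in beta cells, HFHF-old against old, DESeq2 gave -0.00473, RLE size factors -0.00483, and leaving out hormone and enzyme genes -0.11. For *Stx1a* against NK cells these gave 0.19, 0.28 and 0.0044. Without the filter on the top 1% of gene number, *Stx1a* there was 0.0055, *Rab27a* -0.043 (old against young, PP), and *Snap25* -0.094 (HFHF-old against old, PP) and -0.039 (PP against alpha).

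Equal replicate numbers are different rats, and no label ties them to a shared litter, batch or day, so they were not taken as pairs. The correlation of deviations between old and young rats of 1 number was 0.187 in alpha, -0.423 in beta, 0.351 in PP, 0.143 in acinar and 0.246 in NK cells, and between HFHF-old and old rats 0.0981 in acinar and 0.164 in NK cells. With the replicate block, 0 members were called, and HFHF-old against old gave *Snap25* -0.37, *Stx1a* 0.046, *Sytl4* -0.18 and *Rab27a* -0.22 in beta and *Snap25* -0.035 in PP cells.

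Leaving out a rat, old against young ranged for *Syt7* from -0.69 to 0.14 in alpha cells. In beta cells it ranged from -0.058 to 2.56 for *Snap25*, -0.29 to 1.90 for *Syt7*, -0.37 to 2.91 for *Sytl4* and -0.12 to 0.47 for *Rab27a*, and in PP cells from -0.057 to 0.55 for *Snap25* and -0.12 to 0.21 for *Rab27a*. HFHF-old against old in beta cells ranged from -0.64 to 0.40 for *Stx1a*, -0.15 to 0.18 for *Rab27a* and -0.85 to 0.041 for *Rab3a*. *Stx1a* ranged from -0.86 to 0.16 against acinar and -0.32 to 0.16 against NK cells. Beta against alpha ranged from -0.041 to 0.40 for *Snap25* and -0.15 to 0.0039 for *Rab27a*, and *Snap25* from -0.019 to 0.095 in PP against alpha and -0.42 to 0.092 in PP against beta cells. With 2 rats per group, 1 rat in HFHF-old islets and 85 mast cells, depth limits *Stx1a*, *Sytl4* outside beta cells and all mast cell values.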
